A study of Mus musculus with 6 samples.

Results

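CD20, encoded by Ms4a1, and a set of B-cell surface genes that are used mainly after the pre-B stage were followed in sorted bone marrow pre-B cells of Mef2c-deficient and control mice. The set holds 9 genes: Ms4a1, Cd22, Cd72, Cd37, Cr2, Fcer2a, Cd38, Cd55 and Fcrla. They were chosen by name with the values of this same contrast known, so their differences below are a description, and no test is attached to them. Of the 9 genes, 8 were measured, each by 1 probe set, among 23913 probe sets in all. All 8 passed the filter on dim probe sets and were in the fit of 11271 genes. Cd38 was not analysed here.

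The Mef2c-deficient group held 3 arrays from mice carrying Vav-Cre and 2 floxed alleles of Mef2c, the gene of a MADS-box transcription factor. Vav-Cre acts in blood-forming cells, so the deletion covers all blood lineages and not B cells alone. The control group held 3 arrays, and the labels call these animals only control. By the study's methods, controls could carry Mef2cfl/fl, Mef2cfl/+ or Vav-Cre Mef2cfl/+, and which of these an array held is not given. All mice were 9 months old, and the pre-B gate in the methods is B220+ IgM- CD43-. The samples are described as independent, without the animals behind them being named, so the errors below measure the spread between these samples. Mef2c itself was not analysed here and gives no check of the labels. In sorted bulk cells, fewer cells of a type and less RNA per cell cannot be told apart.

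B-lineage cells change their surface in steps. A pre-B cell carries the interleukin 7 receptor and a pre-B-cell receptor built with a surrogate light chain, and once a complete immunoglobulin reaches the membrane the cell takes on the receptors of a mature B cell. Those receptors tune the antigen receptor: some add to its signal, some damp it through inhibitory motifs in their tails, and others guide the cell to follicles or guard it from complement. CD20 is a membrane protein that spans the membrane several times and is the target of B-cell depleting antibodies. CD22 and CD72 are inhibitory, CD21 (from Cr2) is a co-receptor, and CD23 (from Fcer2a) marks follicular B cells.

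All levels are log2 of the deposited signal, and each array is named by its group and replicate number. The base used by the authors to leave the log scale is not settled. If it was e, each log2 difference is 0.69 times the printed value, with the same sign. Over all genes tested the median log2 difference, Mef2c-deficient minus control, was -0.36, and values relative to that median are given where they matter. That median shifted with the filter on dim probe sets, to 0.07 with no filter and -0.54 with a 60th percentile filter. The arrays did not spread equally. The SD over genes of the deviation from the group mean was 0.58, 0.56 and 0.79 on Mef2c-deficient replicates 1, 2 and 3, and 0.29, 0.34 and 0.47 on control replicates 1, 2 and 3.

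The promoter windows of 4 members are shown because these genes carry the 2 patterns described below. Cd22, Cr2 and Cd55 had their highest value on Mef2c-deficient replicate 2, though Cd22 only just above a control array. Cd72 was the member whose Mef2c-deficient arrays all lay below the controls. Each window runs 5′ to 3′ on the gene's strand with 250 bases before and 50 bases after the start given by RefSeq (mouse build GRCm38.p6). Capitals mark matches to the motifs searched.
Cd22, chr7:30878979-30879278, minus strand: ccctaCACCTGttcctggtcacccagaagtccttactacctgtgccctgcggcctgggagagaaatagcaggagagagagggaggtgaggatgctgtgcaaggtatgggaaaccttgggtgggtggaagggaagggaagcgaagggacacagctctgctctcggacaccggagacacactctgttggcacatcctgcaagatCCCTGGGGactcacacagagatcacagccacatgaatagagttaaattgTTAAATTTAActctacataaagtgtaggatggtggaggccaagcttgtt
Cr2, chr1:195176670-195176969, minus strand: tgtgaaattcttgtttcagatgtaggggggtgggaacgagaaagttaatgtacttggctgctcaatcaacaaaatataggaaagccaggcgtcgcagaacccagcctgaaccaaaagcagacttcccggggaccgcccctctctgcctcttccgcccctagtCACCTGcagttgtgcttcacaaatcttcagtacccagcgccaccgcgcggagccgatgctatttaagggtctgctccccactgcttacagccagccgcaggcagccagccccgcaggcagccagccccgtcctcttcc
Cd55, chr1:130462695-130462994, minus strand: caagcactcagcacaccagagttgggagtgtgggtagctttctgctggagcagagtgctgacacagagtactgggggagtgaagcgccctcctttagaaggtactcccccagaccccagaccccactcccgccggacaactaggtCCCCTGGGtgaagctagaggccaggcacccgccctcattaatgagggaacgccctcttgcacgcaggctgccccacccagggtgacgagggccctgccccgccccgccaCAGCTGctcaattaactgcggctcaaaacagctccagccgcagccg
Cd72, chr4:43454577-43454876, minus strand: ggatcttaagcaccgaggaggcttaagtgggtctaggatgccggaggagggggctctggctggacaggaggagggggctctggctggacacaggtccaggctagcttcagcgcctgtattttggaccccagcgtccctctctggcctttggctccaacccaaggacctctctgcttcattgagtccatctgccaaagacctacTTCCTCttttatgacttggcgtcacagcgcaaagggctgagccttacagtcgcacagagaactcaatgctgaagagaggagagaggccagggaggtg

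Windows were found for 8 of the 9 members, with none for Ms4a1. They were 10 in all, since Fcer2a has 3, among 32851 windows of this length. The motifs, searched on both strands, were the E boxes CAGCTG and CAGGTG, the octamer ATGCAAAT, the EBF core CCCNNGGG, the PU.1 core GAGGAA and the MEF2 consensus. The Cd22 window held CAGGTG read on the other strand from position -245, an EBF core from -48 and, from position 2, a MEF2 consensus match that reads on both strands. Among the 10 windows it was the only one with a MEF2 match, which 3.19% of all windows hold. The Cr2 window held CAGGTG on the other strand from -88. The Cd55 window held an EBF core from -105 and CAGCTG from position 5, and the Cd72 window held GAGGAA on the other strand from -47. No member window held the octamer. Among all windows, CAGCTG was present in 16.3%, CAGGTG in 20.2%, the octamer in 1.74%, the EBF core in 13.7% and the PU.1 core in 28.3%. These matches are letters in a window, and nothing about binding was measured in these arrays.

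Ms4a1 was the member with the highest values in the Mef2c-deficient group relative to control. It stood at 15.92, 17.00 and 16.64 on the 3 Mef2c-deficient arrays, against 14.38, 14.79 and 15.71 on the 3 control arrays. The lowest Mef2c-deficient array lay just above the highest control array, so the groups did not overlap. The means were 16.52 ± 0.55 in Mef2c-deficient and 14.96 ± 0.68 in control pre-B cells (SD, n = 3 each). Their difference was thus 1.56 on the log2 scale (SE 0.45), or 2.94-fold on the deposited scale and 2.11-fold if the base was e. Relative to all genes the difference was 1.91. Within replicate numbers it was 1.54, 2.21 and 0.92, and leaving out 1 array at a time gave 1.27 to 1.93. As the groups did not overlap, its sign could not change in these comparisons.

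The other members did not follow Ms4a1 as a group. Of the 8, 4 had higher means and 4 lower means in the Mef2c-deficient group. Ms4a1 was the only member whose groups stood apart with Mef2c-deficient values higher, as they did in 10.6% of all genes tested, and Cd72 the only one apart with them lower, as in 27.1%. The median log2 difference of the 8 was -0.05, or 0.30 relative to all genes.

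**Figure D1:**
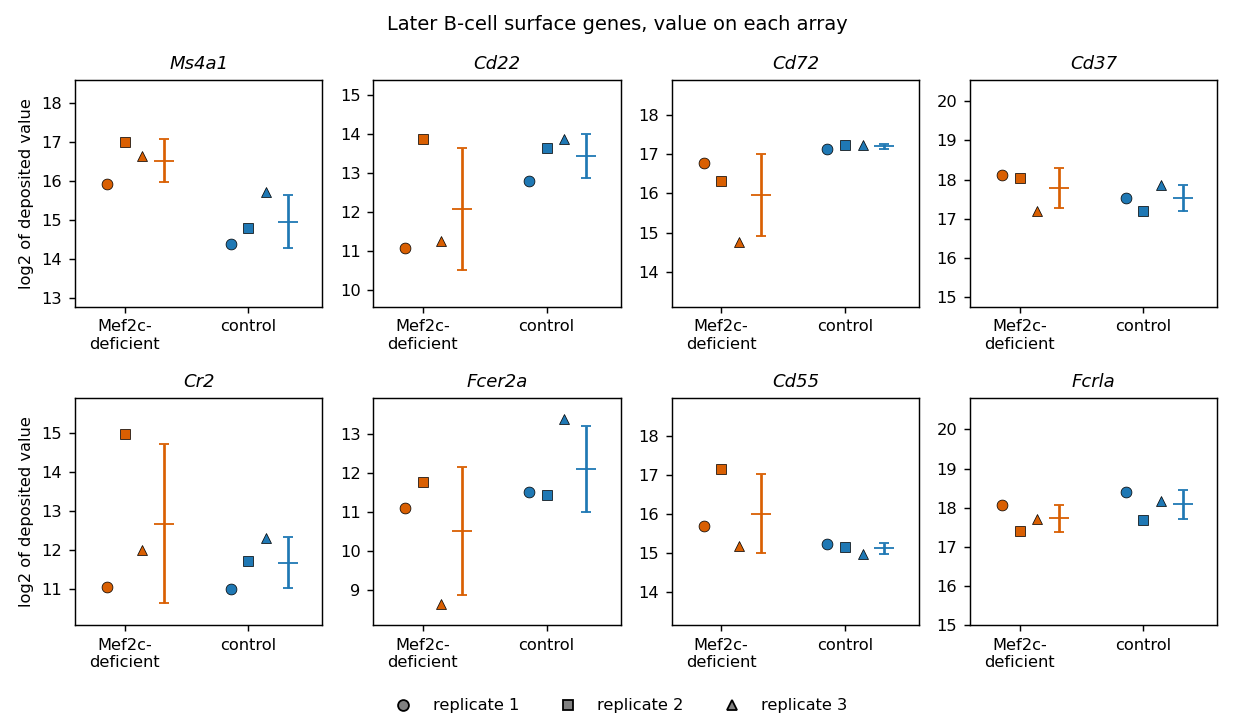
Values on the log2 scale (vertical axis, of equal span in every panel but set at different heights) of the 8 measured genes on 3 Mef2c-deficient arrays (orange) and 3 control arrays (blue), with a symbol for each replicate number and the mean and SD of each group as a bar. Ms4a1 lay between 15.92 and 17.00 on the Mef2c-deficient arrays, above every control array, and Cd72 between 14.77 and 16.77, below every control array.

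Among the inhibitory receptors, Cd22 encodes a lectin that binds sialic acid on the cell's own and neighbouring surfaces and recruits the phosphatase SHP-1 to the antigen receptor. Its values were 11.09, 13.88 and 11.25 on the Mef2c-deficient arrays and 12.80, 13.63 and 13.87 on the control arrays. Mef2c-deficient replicate 2 was only just the highest array of all 6, nearly level with control replicate 3, while replicates 1 and 3 lay below every control. The log2 difference was -1.36 (SE 0.75) with overlapping groups. Without Mef2c-deficient replicate 2 it was -2.26, and within replicate numbers it was -1.71, 0.25 and -2.61.

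Cd72 encodes an inhibitory receptor of the C-type lectin family whose ligand is the semaphorin CD100. Its values were 16.77, 16.32 and 14.77 on the Mef2c-deficient arrays and 17.13, 17.24 and 17.25 on the control arrays. The controls lay within 0.12 of each other and the Mef2c-deficient arrays were spread over 2.0, with replicate 3 far below replicates 1 and 2. The means were 15.95 ± 1.05 in Mef2c-deficient and 17.21 ± 0.06 in control cells (SD, n = 3 each). Their difference was thus -1.26 on the log2 scale (SE 0.51), and it was -0.66 without Mef2c-deficient replicate 3. Relative to the median of all genes the difference was -0.90.

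Fcrla encodes an Fc receptor-like protein that is kept inside the B cell, in the endoplasmic reticulum, although it is grouped here with surface genes. Its values were 18.08, 17.40 and 17.70 on the Mef2c-deficient arrays, against 18.40, 17.69 and 18.16 on the control arrays. The log2 difference of -0.36 (SE 0.33) equalled the median of all genes tested, and the groups overlapped. Relative to the median it was -0.43 with no filter and 0.18 with the 60th percentile filter. When the median of the genes tested was set equal on all arrays the log2 difference was 0.10, so its sign rests on the scaling.

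The complement proteins of the set are CD21, a receptor for C3 fragments that works with CD81 to lower the threshold of the antigen receptor, and CD55, which speeds the decay of complement convertases on the cell's own membrane. Cr2 had 11.07, 14.97 and 12.00 on the Mef2c-deficient arrays and 11.01, 11.72 and 12.32 on the control arrays. Only Mef2c-deficient replicate 2 left the control range. The log2 difference of 1.0 (SE 0.94) became -0.15 without that array, and within replicate numbers it was 0.07, 3.25 and -0.32. Cd55 had 15.70, 17.15 and 15.18 on the Mef2c-deficient arrays and 15.22, 15.16 and 14.97 on the control arrays. Again replicate 2 was the highest, replicate 1 lay above the controls, and replicate 3 lay within their range. The log2 difference of 0.89 (SE 0.50) was 0.32 without Mef2c-deficient replicate 2.

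Fcer2a encodes CD23, the low-affinity IgE receptor, which the protease ADAM10 sheds from the membrane. Its values were 11.10, 11.77 and 8.65 on the Mef2c-deficient arrays and 11.50, 11.42 and 13.36 on the control arrays. The difference of -1.59 (SE 0.87) rested on replicate 3 of both groups: within replicate numbers it was -0.39, 0.34 and -4.72, and it was -0.66 without Mef2c-deficient replicate 3 and -0.95 without control replicate 3. Cd37, a tetraspanin gene of mature B cells, had 18.11, 18.05 and 17.20 on the Mef2c-deficient arrays and 17.53, 17.20 and 17.87 on the control arrays. Its groups overlapped, with a difference of 0.25 (SE 0.36).

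**Figure D2:**
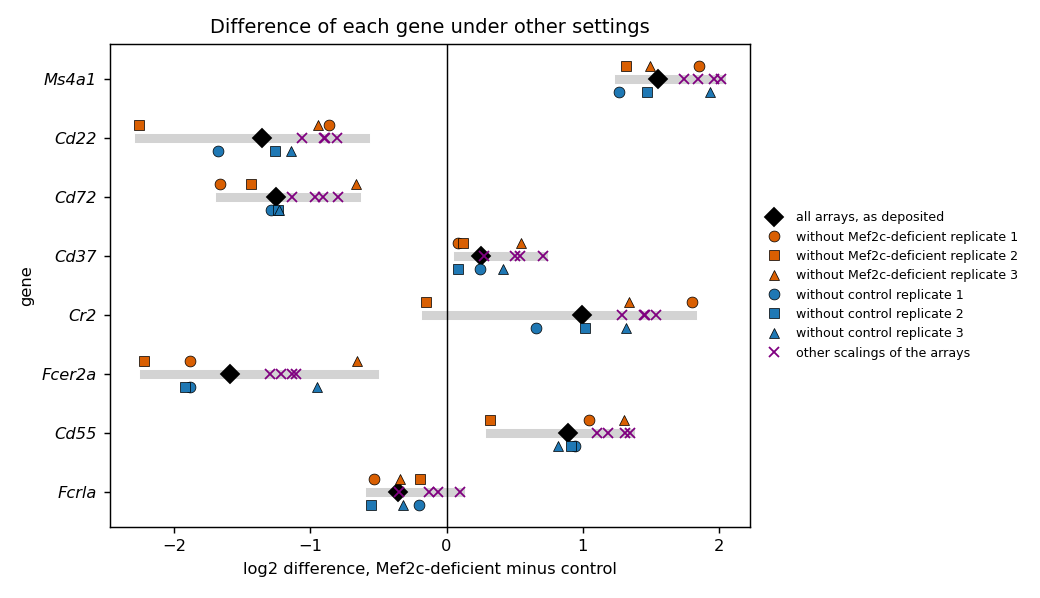
Log2 difference, Mef2c-deficient minus control (horizontal axis), of each gene with all arrays on the deposited scale (diamond), without each Mef2c-deficient array (orange, above the line), without each control array (blue, below the line) and under 4 other scalings of the arrays (crosses), with grey bars spanning all settings run. Ms4a1 stayed between 1.27 and 2.01, while Cr2 crossed 0 without Mef2c-deficient replicate 2.

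A single array gave many of the high values. Mef2c-deficient replicate 2 held the highest value of 4 of the 8 members (Ms4a1, Cd22, Cr2 and Cd55). For Cd22 this was nearly a tie, at 13.88 against 13.87 on control replicate 3. Mef2c-deficient replicate 3 held the lowest value of 3 (Cd72, Fcer2a and Cd37), a share near the 28.7% of all genes lowest there. The array of the highest value was also found for 32 measured genes of a list of 36 other genes known from later B-cell stages, such as MHC class II, chemokine receptors and co-stimulatory molecules. Like the members, that list was drawn up with earlier results of these data known, so its counts are a description. Of these 32, 19 (59.4%) were highest on Mef2c-deficient replicate 2, against 1570 of all 11271 genes (13.9%). The count was 19 to 22 under the other filters and scalings. Of 17 measured pre-B-cell stage genes, 1 was highest on that array.

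Examples from that list were chosen after their values were seen. Icosl, which encodes the ligand of the T-cell co-stimulator ICOS, had 12.06, 15.25 and 12.00 on the Mef2c-deficient arrays and 11.92, 12.50 and 12.98 on the control arrays. Bank1, which encodes a B-cell scaffold protein, had 13.22, 15.94 and 11.74 on the Mef2c-deficient arrays and 12.78, 13.56 and 13.51 on the control arrays. In both genes Mef2c-deficient replicate 2 stood above the other 5 arrays, which overlapped, as in Cr2. Cxcr5, the chemokine receptor that brings B cells into follicles, had 10.91, 13.55 and 12.41 on the Mef2c-deficient arrays and 10.79, 10.67 and 12.19 on the control arrays. Ccr7, which guides lymphocytes into lymph nodes, had 15.23, 17.15 and 14.83 on the Mef2c-deficient arrays and 15.29, 15.00 and 14.55 on the control arrays. Cd69, an early activation gene, split by replicate number in place of genotype, with 16.45, 16.86 and 10.59 on the Mef2c-deficient arrays and 16.57, 16.69 and 11.62 on the control arrays.

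**Figure D3:**
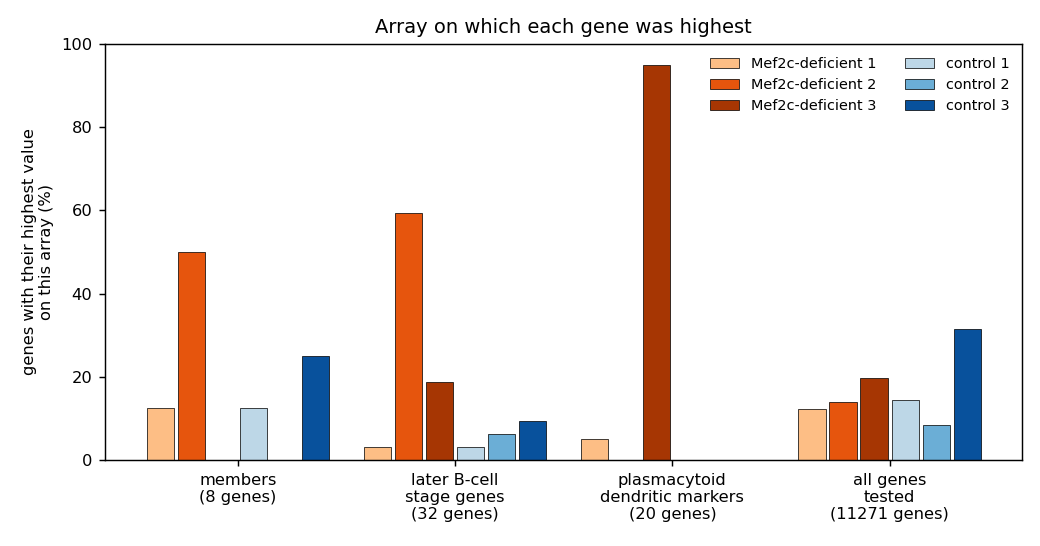
Share of genes (vertical axis, percent) whose highest value lay on each of the 3 Mef2c-deficient arrays (orange shades) and 3 control arrays (blue shades), for the members, the other later B-cell stage genes, markers of plasmacytoid dendritic cells and all genes tested. Of the later B-cell stage genes 59.4% were highest on Mef2c-deficient replicate 2, and of the dendritic markers 95% on Mef2c-deficient replicate 3.

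Over all 32 later B-cell stage genes the median deviation from the control mean was -0.09, 1.17 and 0.13 on Mef2c-deficient replicates 1, 2 and 3, and -0.22, 0.08 and 0.23 on control replicates 1, 2 and 3. Mef2c-deficient replicates 1 and 3 lay within the range of the controls and replicate 2 lay above it. With all arrays, 22 of the 32 genes had higher means and 10 lower means in the Mef2c-deficient group, with a median difference of 0.44, or 0.80 relative to all genes. Without Mef2c-deficient replicate 2, 16 had higher and 16 lower means, with a median difference of 0.0049, or 0.38 relative to all genes.

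**Figure D4:**
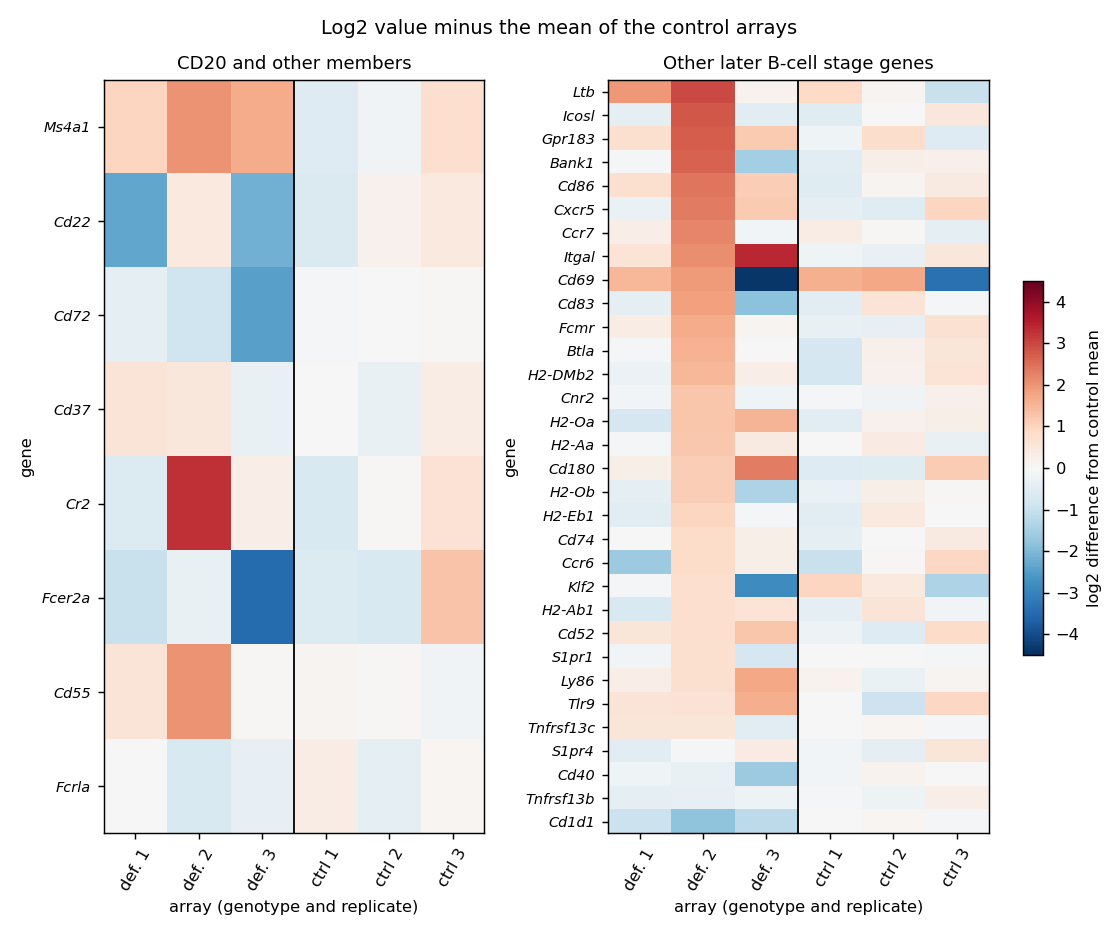
Deviation of each log2 value from the mean over control arrays (colour scale, red higher and blue lower) of the 8 members (left) and the 32 other later B-cell stage genes (right, ordered by Mef2c-deficient replicate 2), with Mef2c-deficient arrays left of the line and control arrays right of it. The column of Mef2c-deficient replicate 2 is red for most genes of the right panel, whose median on that array was 1.17, and Cd69 was low on replicate 3 of both groups.

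None of the other B-cell genes passed limma at a Benjamini-Hochberg adjusted p under 0.05. Over all 11271 genes 2 passed, or 0.0177%, and 0 with the replicate number as a block. Those 2, named after their values were seen, were Slc1a5, a glutamine transporter gene with a log2 difference of -4.02 (limma adjusted p = 0.0258), and Rapgef3 with -3.61 (limma adjusted p = 0.0258). At an unadjusted p under 0.05, 20.9% of all genes were lower and 5.32% higher, and with the replicate number as a block 23.1% and 6.72%. Among the 32 later B-cell stage genes, 1 was lower and 3 were higher at that level, and 1 and 8 with the block. The 3 were Itgal, an integrin chain of leucocytes, with a log2 difference of 2.03 (limma adjusted p = 0.136), Cd86, a co-stimulatory ligand, with 1.41 (0.148), and Gpr183, an oxysterol receptor that positions B cells, with 1.55 (0.162). The lower gene was Cd1d1, a lipid-presenting molecule high on marginal zone B cells, with -1.32 (limma adjusted p = 0.0975).

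The partners of the members in antigen receptor signalling were measured in 19 of 23 genes, and 13 of them had lower means, with a median difference of -0.24 (0.12 relative to all genes). Without Mef2c-deficient replicate 3, 9 had lower and 10 higher means, with a median of 0.05. At an unadjusted p under 0.05, 1 was lower and 0 were higher, against 20.9% and 5.32% of all genes, and with the block 1 was lower and 2, the inhibitory receptor genes Lair1 and Pirb, were higher. The lower gene was Prkcb, the protein kinase C gene that links the receptor to NF-kappaB, with a log2 difference of -1.32 (limma adjusted p = 0.128). The receptor chain genes had differences of 0.32 (SE 0.37) for Cd79a and -0.23 (SE 0.34) for Cd79b. Ptpn6, which encodes the phosphatase recruited by CD22, had a difference of 0.35 (SE 0.40) and Siglecg, the inhibitory relative of Cd22, one of -0.26 (SE 0.61). Cd81, whose product works with CD21, had 14.94, 15.21 and 15.16 on the Mef2c-deficient arrays and 15.30, 15.11 and 15.24 on the control arrays, without the high value that Cr2 had on Mef2c-deficient replicate 2. As in Cd72, Mef2c-deficient replicate 3 held the lowest value of many partners, 9 of 19, against 28.7% of all genes.

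Family relatives were measured in 26 of 41 genes, 18 with higher means, and at an unadjusted p under 0.05 there were 6 higher and 3 lower, with and without the block, against 5.32% and 20.9% of all genes. The MS4A family lies together with Ms4a1 on chromosome 19. Ms4a3, a family member known from myeloid progenitors, had 8.25, 8.54 and 8.42 on the Mef2c-deficient arrays and 7.43, 7.22 and 6.99 on the control arrays, with groups apart and a log2 difference of 1.19 (limma adjusted p = 0.0961). Its control values lay close to the filter value of 7.26, and groups were apart and higher in 10.6% of all genes tested. Ms4a6b had 11.39, 12.24 and 12.09 on the Mef2c-deficient arrays and 10.27, 10.62 and 11.50 on the control arrays, a difference of 1.11 (limma adjusted p = 0.158). By RefSeq, 12 protein-coding genes lie between Ms4a3 and Ms4a1, and 8 between Ms4a6b and Ms4a1. Of the tetraspanin relatives of Cd37, Cd151 had a difference of 1.02 (limma adjusted p = 0.130) and Tspan14, which carries ADAM10 to the membrane, one of -1.0 (limma adjusted p = 0.136).

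Ms4a6b was also among the genes most like Ms4a1 in pattern. Likeness was measured as the root mean square difference over the 6 arrays after each gene was centred on its own mean, and its median over 11263 other genes was 1.15. The closest was Plekhm3 at 0.16, followed by Ms4a6b at 0.24, Sla at 0.29, B4galnt1 at 0.30 and Ncf1 at 0.32. Plekhm3, for example, had 12.18, 13.25 and 13.35 on the Mef2c-deficient arrays and 10.83, 11.12 and 11.99 on the control arrays, with control replicate 3 the highest of the controls as in Ms4a1. Among the members Cd55 was the most like Ms4a1, at 0.76 and rank 978 of the 11263 genes, followed by Cd37 at 0.87 and Cr2 at 0.95. Fcrla lay at 1.18, Cd22 at 1.62, Cd72 at 1.65 and Fcer2a at 1.88, all beyond the median gene.

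Of ligands, shedding enzymes and regulators, 11 of 17 were measured and 0 had an unadjusted p under 0.05 with limma in either direction, against 20.9% of all genes lower and 5.32% higher. With the replicate number as a block, Entpd1 was lower and Sema4d and P2rx7 were higher at that level. Sema4d, which encodes the CD72 ligand CD100, had a log2 difference of 0.90 (SE 0.59). Nt5e, which encodes the ectonucleotidase CD73, had one of 0.55 (SE 0.30), and Entpd1, which encodes CD39, one of -0.87 (SE 0.44), both with groups apart. Of all genes tested, 10.6% had groups apart and higher and 27.1% apart and lower.

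Genes of the pre-B stage mostly had lower means. Of 20 listed, 17 were measured, 14 had lower means in the Mef2c-deficient group and 3 higher, with a median difference of -1.03 (-0.67 relative to all genes). Relative to all genes the median was -0.38 without Mef2c-deficient replicate 2 and -0.39 without replicate 3. At an unadjusted p under 0.05, 4 were lower and 0 higher, a share near the 20.9% of all genes, and with the block 7 were lower and 1 higher. Il7r, the interleukin 7 receptor gene, had 16.61, 16.30 and 16.44 on the Mef2c-deficient arrays and 17.35, 17.89 and 17.37 on the control arrays, a log2 difference of -1.09 (limma adjusted p = 0.110). In Il7r, replicate 2 did not stand out from the other Mef2c-deficient arrays. Over the 17 genes the median deviation from the control mean was -0.23, -1.28 and -0.79 on Mef2c-deficient replicates 1, 2 and 3. Of the 17, 6 (35.3%) were lowest on Mef2c-deficient replicate 2, against 15.9% of all genes. Enpep, the gene of the BP-1 antigen, had a difference of -1.82 (limma adjusted p = 0.110), and the recombinase genes Rag1 and Rag2 had -1.18 (limma adjusted p = 0.160) and -1.40 (limma adjusted p = 0.169). Ighm, the heavy chain gene of IgM, had 6.78, 9.01 and 9.39 on the Mef2c-deficient arrays and 7.91, 12.75 and 14.76 on the control arrays, so that the high values of later B-cell genes on Mef2c-deficient replicate 2 were not shared by this probe set.

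Transcription factors of the B lineage were measured in 25 of 28 genes, 18 with lower means and a median difference of -0.28, or 0.08 relative to all genes. Without Mef2c-deficient replicate 3, 14 had lower means and the median was -0.09, and without replicate 2 it was -0.56. Tcf3, which encodes the E2A proteins that bind E boxes, had a log2 difference of -1.28 (limma adjusted p = 0.129), Ebf1 one of -1.15 (limma adjusted p = 0.135) and Irf4 one of -1.32 (limma adjusted p = 0.161), and these 3 were the ones lower at an unadjusted p under 0.05, against 20.9% of all genes. With the block 3 were lower and 2 higher at that level. Ebf1 had 15.21, 15.23 and 14.11 on the Mef2c-deficient arrays and 15.97, 15.94 and 16.10 on the control arrays. Like Cd72, it had its lowest value on Mef2c-deficient replicate 3, as did 17 of the 25 factors (68.0%), against 28.7% of all genes. Notch2, a receptor needed for marginal zone B cells, which are rich in CD21, had 16.31, 17.87 and 16.77 on the Mef2c-deficient arrays and 16.20, 16.01 and 16.34 on the control arrays, with its peak on the array where Cr2 peaked. It was named after its values were seen. Cd1d1, also high on marginal zone B cells, went the other way and had its lowest value on that array. It had 12.50, 11.67 and 12.31 on the Mef2c-deficient arrays and 13.47, 13.56 and 13.41 on the control arrays.

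Markers of other cells also differed between the arrays. Of 26 listed markers of plasmacytoid dendritic cells, which can carry B220, 20 were measured and 19 were highest on Mef2c-deficient replicate 3. Their summed deposited signal was 893724 to 2462800 on the Mef2c-deficient arrays and 603308 to 1035480 on the control arrays. Siglech, their defining receptor, had 14.41, 16.55 and 18.54 on the Mef2c-deficient arrays and 12.59, 12.51 and 15.53 on the control arrays, and Bst2 had a log2 difference of 2.23 (SE 0.95). Neutrophil markers, with 11 of 14 measured, summed to 46663 to 1291080 on the Mef2c-deficient arrays and 34811 to 179663 on the control arrays, and monocyte and macrophage markers, with 5 of 14 measured, to 4846 to 186980 on the Mef2c-deficient arrays and 5738 to 24701 on the control arrays. Each of these highest sums lay on Mef2c-deficient replicate 3. Conventional dendritic cell markers, with 5 of 9 measured, summed to 3677 to 48092 on the Mef2c-deficient arrays and 876 to 2817 on the control arrays, and T-cell markers, with 5 of 11 measured, to 69393 to 134382 on the Mef2c-deficient arrays and 65399 to 84604 on the control arrays. The summed signal of plasma cell markers, with 7 of 9 measured, was 232803 to 350494 on the Mef2c-deficient arrays and 362795 to 467037 on the control arrays. Of these 7, 4 had lower means and 3 higher, with a median difference of -0.18, or 0.18 relative to all genes. Sdc1, the CD138 gene, had a difference of -2.36 (limma adjusted p = 0.0781), Mzb1 one of 0.47 (SE 0.32) and Jchain one of 0.46 (SE 0.45). The plasma cell sums also include Irf4, counted above among the B-lineage factors. It had 17.19, 16.53 and 15.21 on the Mef2c-deficient arrays and 17.90, 17.49 and 17.51 on the control arrays. For NK cells 3 of 9 and for erythroid cells 5 of 10 markers were measured, and their sums overlapped between the groups. The part of these markers in the values of the members was not tested.

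On Mef2c-deficient replicate 2, where Cr2, Cd55 and most of the later B-cell stage genes peaked, the summed conventional dendritic cell markers, at 4608, lay above every control array. The summed T-cell markers were at their highest of all 6 arrays there, at 134382, a sum led by the brightest of them, Cd2, at 16.95. Cd4 and Cd8b1 were instead highest on Mef2c-deficient replicate 3, at 13.98 and 13.28. The median deviation of the T-cell markers from the control mean was 0.59, 0.76 and 3.21 on Mef2c-deficient replicates 1, 2 and 3. The sums of the neutrophil, monocyte and plasmacytoid dendritic cell markers on Mef2c-deficient replicate 2 were 46663, 5553 and 893724, each within the range of the controls or below it. The plasmacytoid sum includes the bright genes Spib and Ly6d, at 18.24 and 17.61, neither above the highest control. Siglech and Bst2, at 16.55 and 14.49 on that array, lay above every control. The median deviation of the plasmacytoid markers was 0.77 there, against -0.40, -0.33 and 0.70 on control replicates 1, 2 and 3.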

How the data were processed

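RNA of sorted pre-B cells was hybridised to Affymetrix mouse arrays, 3 Mef2c-deficient and 3 control, grouped by the genotype in the labels. The authors deposited linear intensity values of 23913 probe sets, background adjusted, quantile normalized and summarised by RMA per the study's methods, which name limma for differential expression. The array medians of the deposited values nevertheless ran from 236 to 285. Tool versions were not given in the sources used here. The highest deposited value was 2144600, and 2865 of 143478 values (2.00%) exceeded 65535, the limit of a 16-bit scanner, so the base of the exponent is open.

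Analyses used log2 of these values without an offset. Probe set names came from the array's annotation, which may be out of date: 17690 had 1 symbol, 524 several and 5699 none, and 17539 symbols matched RefSeq by gene identifier. Only probe sets with 1 symbol, AFFX controls excepted, were used. Probe sets with a mean above the 40th percentile (log2 of 7.26) were kept, and a gene was represented by its brightest kept probe set. The fit used R 4.3.3 and limma 3.58.1 (lmFit on group, eBayes), two-sided, with Benjamini-Hochberg adjustment over 11271 genes and a threshold of 0.05, checked on simulated data. SE values are those of this fit. Groups are called apart where every array of one lies above every array of the other.

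The members and all gene lists were chosen with earlier results of these data known. Named genes are the members, the genes of lowest unadjusted p in each B-cell list (at most 4), the brightest and defining markers of other cells, Cd79a, Cd79b and Ptprc, and the 5 genes most like Ms4a1. Partners and genes named for a role beyond these (Cxcr5, Ccr7, Icosl, Bank1, Cd69, Ighm, Notch2, Ptpn6, Siglecg and Cd81) were chosen after their values were seen. Deviations from the group means were shared within a replicate number, with correlations over genes of 0.348, 0.226 and 0.373 for numbers 1 to 3, against -0.309 to 0.129 for other pairs. The pairing is read from these values, as no label explains the numbers. Alternatives were an offset of 16, other filters and scalings, other rules for probe sets, a variance trend, array weights, the methods' t-test, the replicate block and leaving out each array.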

Additional observations from a re-analysis of the deposited data

Results flagged for a closer look

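The spiked-in control bioB, which is bacterial RNA and took part in no comparison of genes, was higher on the Mef2c-deficient arrays. The mean of its 3 probe sets was 17.22, 16.25 and 15.54 on the Mef2c-deficient arrays and 14.59, 14.76 and 14.35 on the control arrays, a log2 difference of 1.77. Every Mef2c-deficient array lay above every control array, as in Ms4a1. Its part in the values of the members was not tested.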

How the results depend on the processing

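The 8 members were recomputed under 17 other settings each. Ms4a1 stayed between 1.27 and 2.01, Cd72 between -1.67 and -0.66, Cd22 between -2.26 and -0.60, Fcer2a between -2.22 and -0.53, Cd55 between 0.32 and 1.35 and Cd37 between 0.09 and 0.71. Cr2, at 1.0 with all arrays, ran from -0.15 without Mef2c-deficient replicate 2 to 1.80 without replicate 1, and Fcrla to 0.10 when arrays were centred on the median of the genes tested, a setting chosen after the data were seen. The causes were not tested.

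The count of genes at an adjusted p under 0.05, 2 with limma on the deposited values, was 0 after quantile normalization, cyclic loess, centring on the kept probe sets or on the genes tested, with the methods' t-test and with the replicate block, 1154 with array weights, and 0 to 159 without 1 array (159 without Mef2c-deficient replicate 3, 12 without replicate 1). Lower genes at an unadjusted p under 0.05, 2353 on the deposited scale, numbered 1248 after quantile normalization, 1148 after cyclic loess, 1209 centred on kept probe sets, 743 centred on the genes tested and 1392 to 2668 without 1 array. Higher genes, 600 on the deposited scale, numbered 1445 with no filter, 249 with the 60th percentile filter, 931 after cyclic loess, 1581 and 2247 after the 2 centrings, 1005 with array weights and 239 to 797 without 1 array. Of the other B-cell genes 7 passed an adjusted p of 0.05 with array weights and 0 otherwise, the replicate block included. At an unadjusted p under 0.05 the block gave 2599 lower and 757 higher genes, and of later B-cell stage genes 8 higher in place of 3, of pre-B genes 7 lower in place of 4. Depth does not apply to arrays, and 3 arrays a group limit the precision.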
